A study of Mus musculus with 9 samples.

Results

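The Wnt ligands, the Frizzled receptors and the secreted Frizzled-related proteins (Sfrp) of the mouse were read in chromatin maps of thymic T cell lymphomas driven by MYCN. They make 33 genes, 19 Wnt, 10 Fzd and 4 Sfrp, out of 21887 protein-coding genes on 21 chromosomes of the RefSeq annotation of GRCm38. They were chosen by gene family and not by a cut on any measured value, but with earlier results of these data known. The cells came from the thymus of C57BL/6J mice, and every library was made from this lymphoma model, with no sample of normal thymus or of cells without the oncogene. The promoter that drives MYCN and the number of animals behind each library are not given in the sources used here. Chromatin was fragmented and tagged by ChIPmentation, in which the sequencing adapters are inserted into the immunoprecipitated chromatin itself, and 7 antibodies were used with 1 library each. EZH2 and SUZ12 belong to Polycomb repressive complex 2, which places H3K27me3, a mark of silent chromatin, and these made 3 of the 7 targets, with the oncoprotein N-MYC as a further target. The other 3 antibodies recognised the acetyltransferase p300, the mark H3K27ac that p300 can write at active promoters and enhancers, and H3K4me3, a mark of promoters. Because each antibody had 1 library, no value below has a replicate or a test between groups. The 2 input libraries were not analysed here.

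Wnt proteins are lipid-modified signals that travel short distances between cells. They bind Frizzled receptors together with the co-receptors Lrp5 and Lrp6. In the canonical branch this stabilises beta-catenin, which enters the nucleus and works with Tcf and Lef factors on target genes. Sfrp proteins carry a domain like the ligand-binding domain of Frizzled and can bind Wnt proteins outside the cell. In the thymus, Wnt signals help immature thymocytes to expand, and the factors Tcf7 and Lef1 are needed for T cell development. Much of the Wnt protein there is made by the thymic epithelium rather than by thymocytes. In many tissues, Polycomb complexes occupy the CG-rich promoters of signalling genes that a cell does not use.

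A gene was counted as called in a list when at least 1 base of a deposited peak lay within 1 kb of its listed start, the most upstream where several were listed. A start was listed for 23 of the 33 genes (15 Wnt, 6 Fzd and 2 Sfrp) and for 17492 genes in all. For Wnt5a, Wnt7b, Wnt8a, Wnt10a, Fzd2, Fzd3, Fzd6, Fzd8, Sfrp1 and Sfrp4 the windows lay around both ends of the gene, and these 10 are reported apart. A fold enrichment is the peak caller's own value for the highest point of a peak, its summit, which can lie outside the window when a peak is broad. A list without a peak at a gene says that none was called there and nothing more. The lists hold from 9798 peaks for N-MYC to 123056 for H3K27me3, and the number of reads behind each is unknown.

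The promoters of 7 genes stand for the patterns found in the family, and the 250 bases before the start of each are shown with CG dinucleotides in capitals, because most genes of the family began in CG-rich sequence. Fzd4 had the highest EZH2 enrichment at a listed start in the family and Wnt1 was among the 5 highest, and both lay in wide Polycomb peaks. Fzd9 was the only gene with N-MYC within 1 kb of its most upstream listed start. Fzd5 and Fzd7 had no H3K27me3 peak, and their H3K4me3 peaks were the highest of the family. Wnt8b and Fzd10 had H3K27me3 at the start but neither EZH2 nor SUZ12, in sequence poor in CG in Wnt8b and rich in Fzd10. The bases are from RefSeq's promoter table for GRCm38.p6, written 5′ to 3′ on the strand of the gene.
Fzd4: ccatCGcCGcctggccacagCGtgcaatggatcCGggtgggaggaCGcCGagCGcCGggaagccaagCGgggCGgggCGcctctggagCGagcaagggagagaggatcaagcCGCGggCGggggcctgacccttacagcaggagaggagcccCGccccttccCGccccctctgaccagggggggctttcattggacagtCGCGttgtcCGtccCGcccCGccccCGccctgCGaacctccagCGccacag
Wnt1: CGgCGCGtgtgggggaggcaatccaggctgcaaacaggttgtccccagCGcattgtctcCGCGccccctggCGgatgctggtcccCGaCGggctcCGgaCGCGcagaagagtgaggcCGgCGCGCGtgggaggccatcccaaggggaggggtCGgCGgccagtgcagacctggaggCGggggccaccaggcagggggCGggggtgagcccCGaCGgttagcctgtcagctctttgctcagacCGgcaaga
Fzd9: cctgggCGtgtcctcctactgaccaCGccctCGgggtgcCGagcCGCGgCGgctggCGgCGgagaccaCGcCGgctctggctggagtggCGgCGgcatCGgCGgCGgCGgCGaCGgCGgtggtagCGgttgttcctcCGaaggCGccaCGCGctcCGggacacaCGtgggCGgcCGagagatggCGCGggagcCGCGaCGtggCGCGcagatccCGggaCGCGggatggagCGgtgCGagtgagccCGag
Fzd5: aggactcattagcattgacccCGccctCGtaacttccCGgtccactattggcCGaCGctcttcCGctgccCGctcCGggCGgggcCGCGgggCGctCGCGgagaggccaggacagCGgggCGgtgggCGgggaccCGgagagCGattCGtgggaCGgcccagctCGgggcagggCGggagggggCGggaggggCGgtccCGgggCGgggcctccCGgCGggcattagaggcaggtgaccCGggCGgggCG
Fzd7: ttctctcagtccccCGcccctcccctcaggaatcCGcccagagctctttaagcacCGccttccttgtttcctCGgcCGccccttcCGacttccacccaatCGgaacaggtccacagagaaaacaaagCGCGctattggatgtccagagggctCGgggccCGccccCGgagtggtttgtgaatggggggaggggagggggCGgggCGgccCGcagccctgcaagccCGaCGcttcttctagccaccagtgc
Wnt8b: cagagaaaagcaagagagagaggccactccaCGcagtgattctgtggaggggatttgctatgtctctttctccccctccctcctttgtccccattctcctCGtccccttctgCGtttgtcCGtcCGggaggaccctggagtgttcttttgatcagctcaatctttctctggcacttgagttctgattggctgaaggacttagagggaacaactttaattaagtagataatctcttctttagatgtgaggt
Fzd10: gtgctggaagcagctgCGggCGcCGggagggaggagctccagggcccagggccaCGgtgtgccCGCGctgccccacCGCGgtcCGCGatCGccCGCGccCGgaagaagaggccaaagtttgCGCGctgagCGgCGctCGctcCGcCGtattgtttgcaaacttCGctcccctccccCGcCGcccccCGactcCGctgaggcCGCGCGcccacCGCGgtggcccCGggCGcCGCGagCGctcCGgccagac
These stretches lie at chr7:89404116-89404365 on the plus strand for Fzd4, at chr15:98789607-98789856 on the plus strand for Wnt1 and at chr5:135251048-135251297 on the minus strand for Fzd9. Those of Fzd5 and Fzd7 lie at chr1:64737751-64738000 on the minus strand and chr1:59481897-59482146 on the plus strand. Wnt8b has chr19:44493222-44493471 and Fzd10 has chr5:128600856-128601105, both on the plus strand. The printed stretches hold 25 CG dinucleotides in Fzd4, 23 in Wnt1, 42 in Fzd9, 32 in Fzd5, 17 in Fzd7, 5 in Wnt8b and 37 in Fzd10.

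The cell identity given in the labels was read from marker genes by the same windows. Of all genes, 51.1% had H3K4me3 at the start and 50.0% at either end, and for H3K27ac these shares were 51.1% and 52.4%. Of 10 T lymphocyte genes, 9 had H3K4me3 and H3K27ac at the start or, where no start was listed, at a gene end, Cd3e among them with H3K4me3 at 33.2-fold, while Cd8a had H3K27me3 at 8.29-fold only. Of 20 markers of B cells, myeloid cells, thymic epithelium, stroma and endothelium, 3 had H3K4me3: Cd79a (4.74-fold), Cebpa (6.81-fold) and Epcam (19.3-fold). The thymic epithelial genes Krt5 and Psmb11 had no peak in any list, and Foxn1, which defines that epithelium, had H3K27ac at 2.84-fold alone. N-MYC was at none of these 20 genes, against 33.2% of all genes at the start and 32.0% at either end. H3K27ac was present at 9 of the 20, up to 19.8-fold at the myeloid gene Spi1, a count near the share of all genes. The part of other cells in the values below was not tested.

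Polycomb peaks covered the starts of most of the family, and peaks of the active lists were few. H3K27me3 was called at 21 of the 23 listed starts (91.3%), where 23.7% of all 17492 genes had it. SUZ12 was called at 18 (78.3%), against 12.3% of all genes, and EZH2 at 19 (82.6%), against 44.9%. All 3 lists met at 18 starts (78.3%), against 11.3% of all genes. Of the active lists, H3K4me3 was called at 6 starts (26.1% against 51.1%) and H3K27ac at 3 (13.0% against 51.1%). p300 was called at 2 (8.70% against 39.8%) and N-MYC at 1 (4.35% against 33.2%). Any of these 4 lists was called at 6 starts, against 54.8% of all genes. At 14 starts (60.9%) EZH2, SUZ12 and H3K27me3 stood without any of the 4 active lists, a combination found at 6.81% of all genes. No member lacked a peak of every list, as 29.0% of all genes did.

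**Figure D1:**
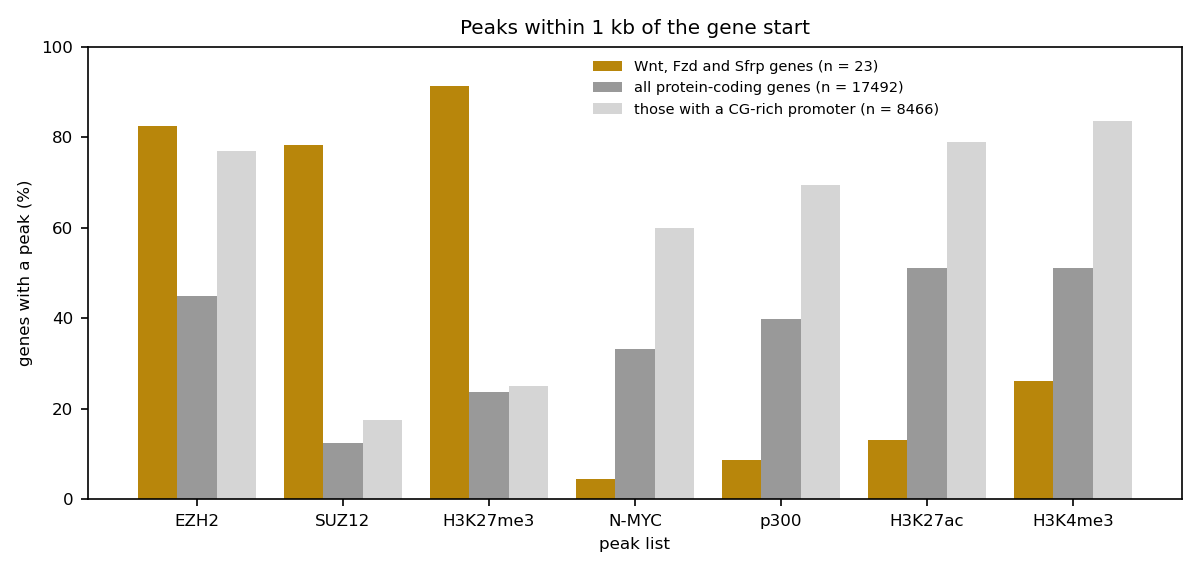
Bars give the percentage of genes with a peak within 1 kb of the start (y axis) in each of the 7 peak lists (x axis), for the 23 Wnt, Fzd and Sfrp genes with a listed start, for all 17492 genes and for the 8466 of these with a CG-rich promoter. SUZ12 and H3K27me3 were called at 78.3% and 91.3% of the family, and N-MYC and p300 at 4.35% and 8.70%.

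Of the 10 genes read at both ends, where H3K27me3 lay at 27.6% of all 21887 genes, all 10 had it. EZH2 lay at 8 (against 44.3%) and SUZ12 at 8 (against 13.8%). H3K4me3 lay at 3 (against 50.0%), N-MYC at 2 (against 32.0%), p300 at 2 (against 38.4%) and H3K27ac at 1 (against 52.4%). With this rule for all 33 genes, EZH2, SUZ12 and H3K27me3 met at 26, against 12.7%, and H3K4me3 with H3K27me3 at 7, against 8.27%. Among genes with H3K27me3 at an end, H3K4me3 was at 7 of 31 members, against 1810 of 6039 genes. Over the gene bodies, EZH2 was called in 28 of 33 (against 47.1%), SUZ12 in 27 (against 14.9%), and both with H3K27me3 in 27 (against 13.8%). No body lacked every list, as 22.7% did. H3K27me3 was called in 31 bodies, against 30.2%, and covered a median of 57.1% of the body. At least 50% of the body lay under H3K27me3 in 18 of the 33, which held for 7.31% of all genes. The bodies of Wnt1, Fzd2, Fzd8 and Sfrp5 were covered to 100%, and those of Fzd5 and Fzd7 to 0%.

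**Figure D2:**
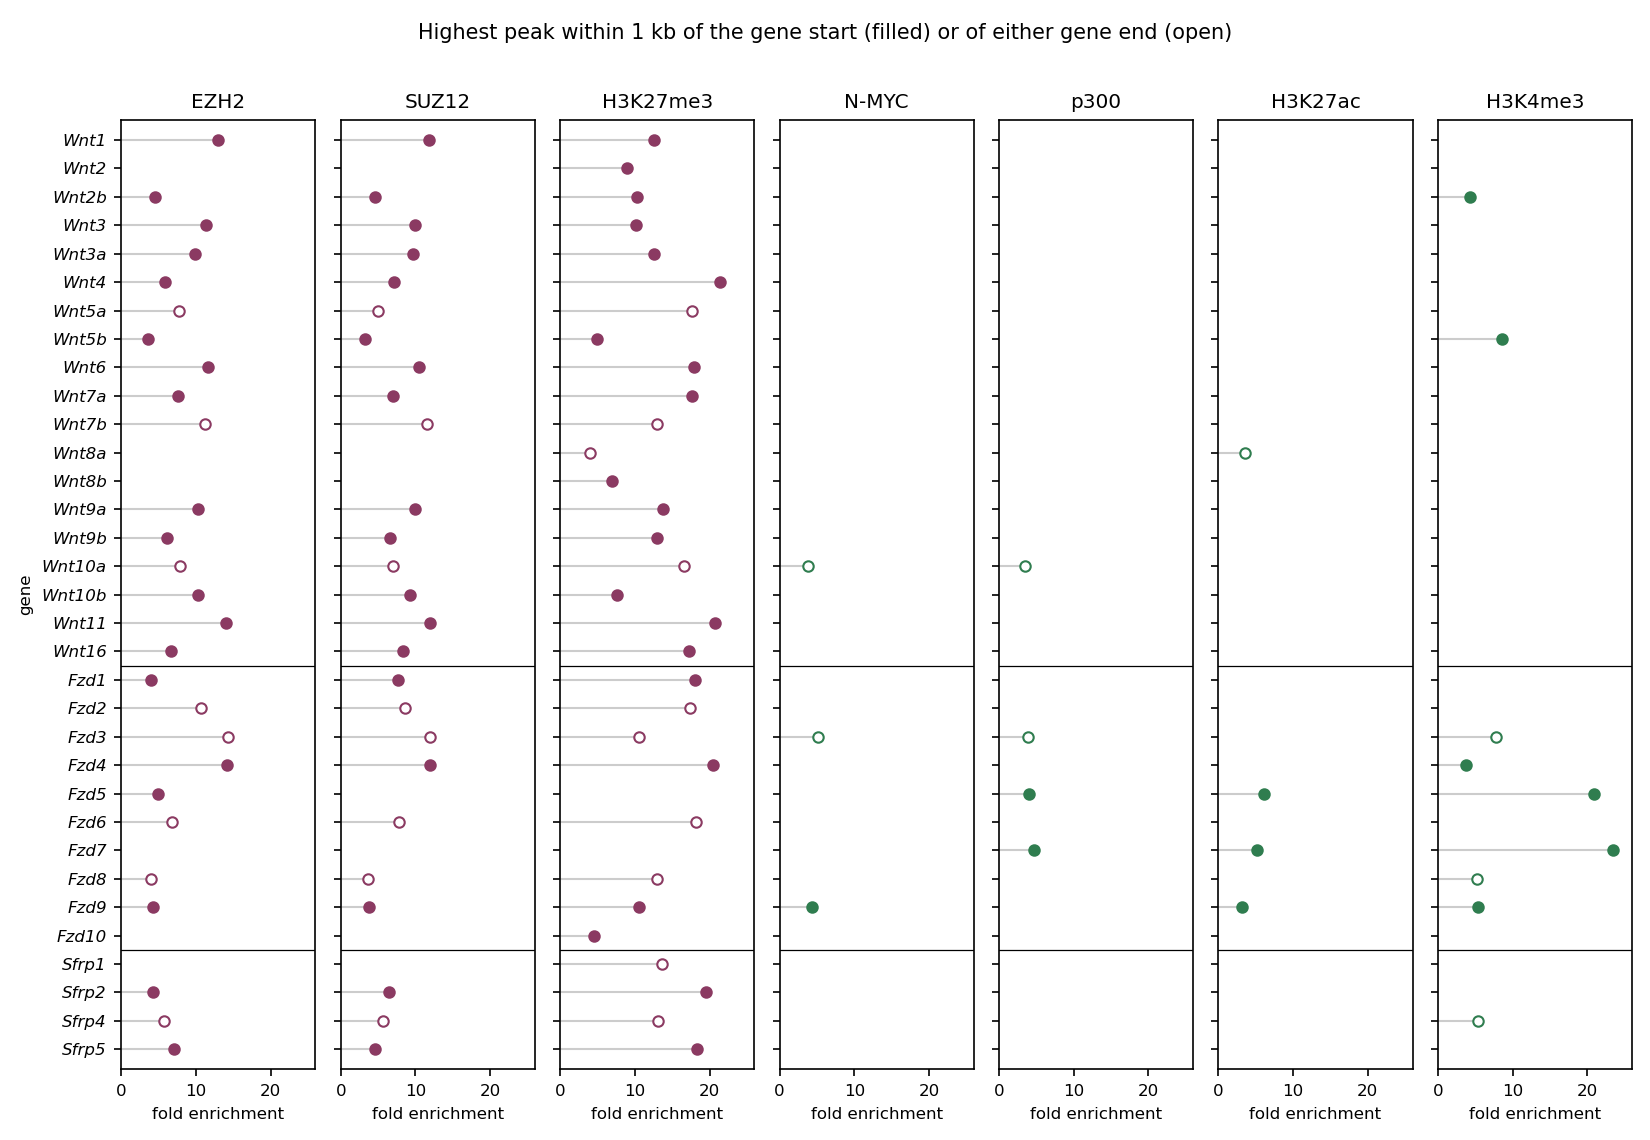
Each panel is 1 peak list, each row 1 gene in the order ligands, receptors and inhibitors, and the x axis is the fold enrichment of the highest peak within 1 kb of the listed start (filled points) or of either gene end where no start is listed (open points), with no point where no peak was called. The H3K27me3 panel has a point in all 19 Wnt rows, up to 21.4-fold at Wnt4, and EZH2 and SUZ12 have one in 16 of them, while the higher H3K4me3 points belong to Fzd5 (20.9) and Fzd7 (23.4).

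Among the Wnt ligands, H3K27me3 was called at all 15 listed starts, against 23.7% of all genes, and EZH2 and SUZ12 together with it at 13, against 11.3%. H3K4me3 was the only active list with a peak at these 15 starts, at 2 of them, against 51.1%. Wnt11, a ligand best known from cell movements of the embryo, had the highest EZH2 value of the ligands, 14.0-fold in a peak of 7367 bp, with SUZ12 at 12.0 and H3K27me3 at 20.7. Wnt1, the founding member of the family and a signal of the developing midbrain, had EZH2 at 12.9, SUZ12 at 11.8 and H3K27me3 at 12.5, and its H3K27me3 summit lay 7936 bp past the start. Its single EZH2 peak of 5261 bp covered 99.3% of the gene. The CG-rich stretch printed above for Wnt1 lies inside these 3 peaks.

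Wnt4, a ligand that acts in kidney and gonad development and is also made by thymic epithelium, had the highest H3K27me3 value of the family, 21.4-fold, with EZH2 at 5.90 and SUZ12 at 7.19. Wnt6 had 11.6, 10.5 and 17.9 for EZH2, SUZ12 and H3K27me3. Wnt3, needed for the primitive streak, had 11.3, 10.02 and 10.1 in the same order. These genes with high Polycomb values had no active peak within 1 kb of their starts. Wnt3a, a canonical ligand of the posterior embryo, had 9.86, 9.69 and 12.5, and its neighbour Wnt9a had 10.2, 10.02 and 13.8. Wnt7a, a limb patterning signal, had 7.58, 7.06 and 17.7. Wnt10b, a ligand that acts on stem cells of skin and bone, had 10.3, 9.33 and 7.58, with H3K27me3 below that of the other ligands with comparable EZH2. Wnt9b had 6.08, 6.59 and 12.9, and Wnt16 had 6.61, 8.29 and 17.2.

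The 4 ligands without a listed start differed more. Wnt5a, the main ligand of the beta-catenin-independent branch, had EZH2 at 7.67, SUZ12 at 5.01 and H3K27me3 at 17.7 at its lower end. Wnt7b had 11.2, 11.5 and 12.9 at its upper end. Wnt10a had EZH2, SUZ12 and H3K27me3 at both ends, the highest values being 7.89, 7.03 and 16.6. Wnt8a, a ligand of the early embryo, had neither EZH2 nor SUZ12 at an end, with H3K27me3 at 4.05 at the upper end and H3K27ac at 3.56 at the lower end. Its nearest EZH2 and SUZ12 peaks were 34.9 and 31.0 kb from the gene.

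Several Wnt genes lie next to each other, and their H3K27me3 ran across the neighbours, so that these genes are not independent observations. Wnt3a and Wnt9a are 16.1 kb apart on chromosome 11, and joining H3K27me3 peaks separated by at most 1 kb gave a single domain of 81.4 kb, chr11:59239420-59320836, that held both starts. Wnt6 and Wnt10a, 6.70 kb apart, shared a domain of 34.7 kb at chr1:74763410-74798110. The domain at the Wnt3 start was 51.8 kb long and reached into the Wnt9b gene, which overlaps Wnt3 by 1098 bp, while the Wnt9b start lay in a domain of its own of 18.0 kb. Wnt1 and Wnt10b, 11.7 kb apart, lay in separate domains of 24.9 and 7.93 kb. EZH2 and SUZ12 peaks at these starts were narrower than the H3K27me3 around them, such as 3140 bp of EZH2 at Wnt3a inside an H3K27me3 peak of 33030 bp. Counted per gene, so that the shared Wnt3a and Wnt9a domain counts for each, the 21 members with H3K27me3 at a listed start lay in domains of median length 15.6 kb (range 3.66 to 81.4 kb), against 7.39 kb for the 4140 genes with such a peak. Of the 21 members, 14 lay in a domain of at least 10 kb, against 1558 of the 4140 genes.

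**Figure D3:**
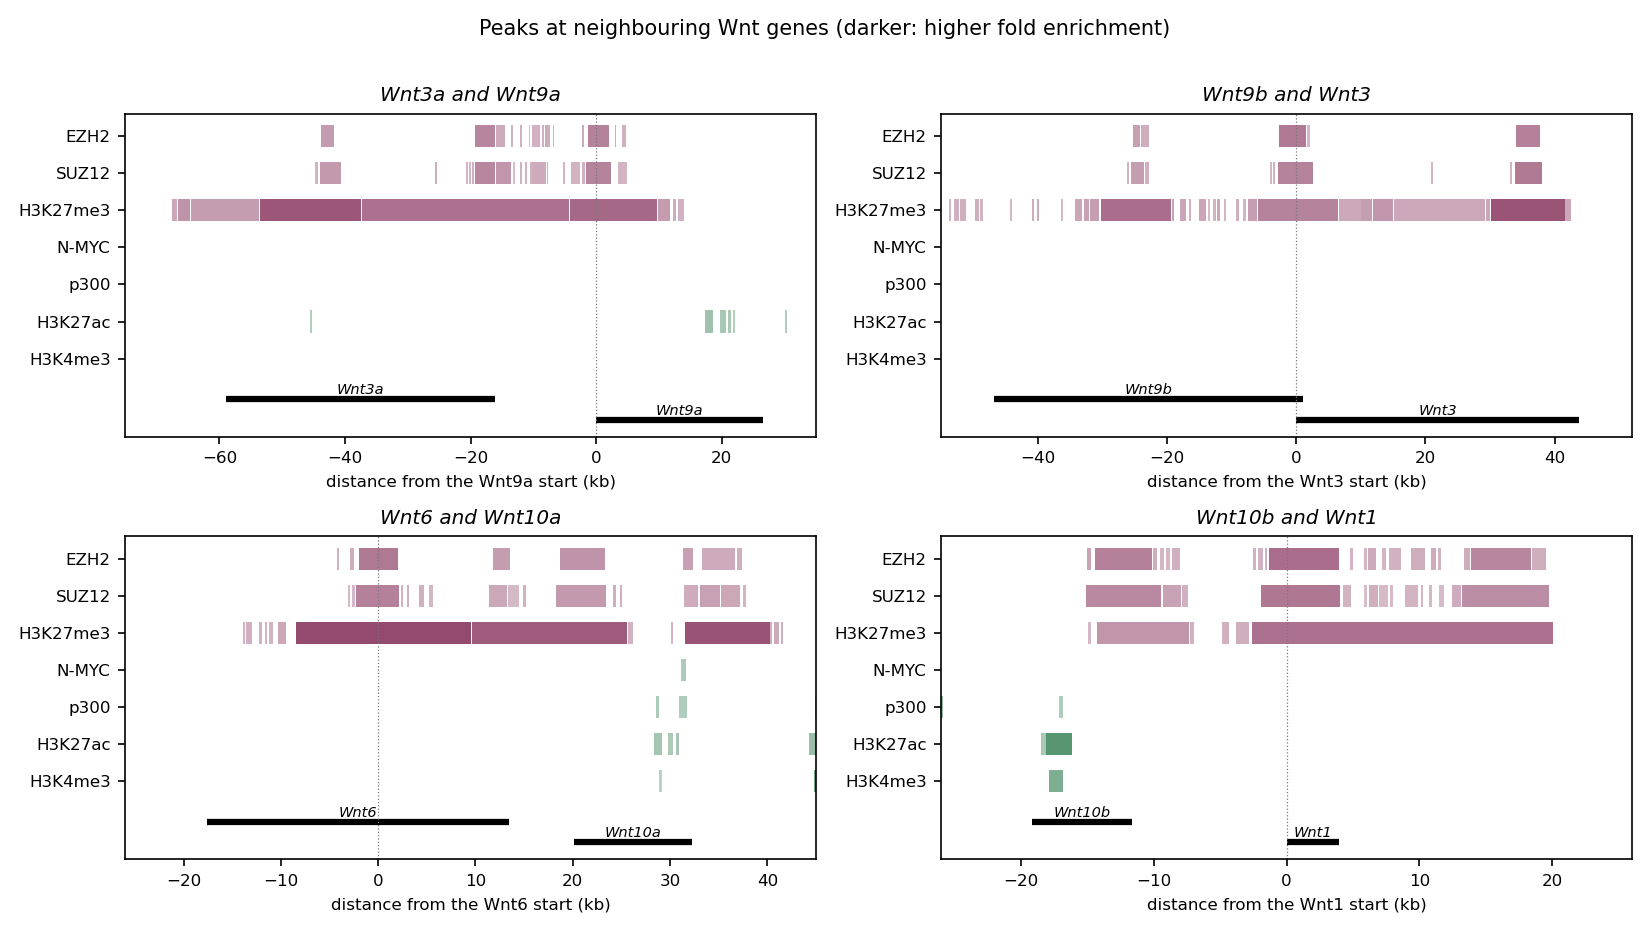
Peaks of the 7 lists (rows) are drawn to scale along 4 pairs of neighbouring Wnt genes, with distance in kb from the start named on each x axis, darker where the fold enrichment is higher, and the genes as black bars at the bottom. A block of H3K27me3 with gaps of at most 1 kb runs over Wnt3a and into Wnt9a, of whose body 48.4% lay under H3K27me3, whereas Wnt10b and Wnt1 have separate blocks and Wnt10b alone of that pair has H3K4me3, H3K27ac and p300 inside its body.

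Active peaks at ligands were weak at the starts, with stronger ones inside some gene bodies. Wnt2b had H3K4me3 at 4.31-fold in a peak of 346 bp that lay wholly inside peaks of H3K27me3, at 10.3, SUZ12, at 4.55, and EZH2, whose highest peak at the start was at 4.52. Wnt5b, a ligand of the beta-catenin-independent branch, had H3K4me3 at 8.55 with 1427 of the peak's 1610 bp shared with H3K27me3, which was low there at 4.92, as were EZH2 at 3.57 and SUZ12 at 3.31. Its most downstream listed start had N-MYC at 3.90, H3K27ac at 4.99 and H3K4me3 at 7.42. The highest peaks within the long Wnt5b body, H3K4me3 at 37.8, H3K27ac at 16.3, N-MYC at 8.03, p300 at 6.30 and EZH2 at 7.33, lay at the start of Fbxl14, a gene that begins 64679 bp from the Wnt5b start on the other strand. They are therefore assigned to that position and not to the ligand.

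In Wnt10b, H3K27ac at 14.9-fold and H3K4me3 at 9.89-fold lay in the gene body outside the start window, with p300 at 3.60, although the start itself had no active peak. The Wnt7b body held 16 H3K27ac peaks, the highest at 6.78-fold, covering 20.1% of it, and no H3K4me3, p300 or N-MYC. Wnt9a had 4 H3K27ac peaks, the highest at 5.73. Wnt10a had N-MYC at 3.85 and p300 at 3.51 at its upper end, with H3K27ac at 4.94 and H3K4me3 at 2.52 in the body. In all, 12 of 33 bodies held H3K27ac, against 57.9% of all genes, and 11 held H3K4me3, against 54.0%. N-MYC lay in 5 bodies, against 35.3%, and p300 in 6, against 42.0%. Each of these counts includes Wnt5b, whose highest body peaks lay at the Fbxl14 start.

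The Frizzled receptors had peaks of both kinds. Of 6 listed starts, 3 had EZH2, SUZ12 and H3K27me3 together, against 11.3% of all genes, and 4 had H3K4me3, against 51.1%, so that the H3K4me3 count was near that of genes at large. Fzd4, which also serves as the receptor of the ligand Norrin in retinal vessels, had the highest EZH2 value of the listed starts, 14.2-fold (−log10 q of 43.23) over 4459 bp, with SUZ12 at 12.0 and H3K27me3 at 20.5. A H3K4me3 peak of 851 bp at 3.83-fold lay wholly inside these 3 peaks and stood at the 1.11 percentile of H3K4me3 values over genes with such a peak. The start of Tmem135 on the other strand is 144 bp from that of Fzd4, so that these peaks cannot be given to 1 of the 2 genes. Fzd1 had 3.98 for EZH2, 7.64 for SUZ12 and 18.0 for H3K27me3, and no active peak nearer than 428 kb.

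Fzd5 and Fzd7 had the opposite set of peaks. Fzd7 had H3K4me3 at 23.4-fold over 3005 bp, H3K27ac at 5.20 and p300 at 4.69, and its nearest EZH2, SUZ12 and H3K27me3 peaks were 188, 281 and 282 kb away. Fzd5 had H3K4me3 at 20.9 over 3405 bp, H3K27ac at 6.05, p300 at 4.03 and EZH2 at 4.90, with SUZ12 and H3K27me3 no nearer than 46.2 and 45.8 kb. Fzd5 was thus the only listed start of the family with EZH2 but neither SUZ12 nor H3K27me3 (4.35%), a state found at 32.0% of all genes. An N-MYC peak of 3.27-fold lay 1.21 kb from the Fzd5 start, inside the gene and outside the window. Though the highest of the family, the H3K4me3 values of Fzd5 and Fzd7 stood at the 32.1 and 39.8 percentile of all genes with a H3K4me3 peak at the start.

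Fzd9, a receptor known from the hippocampus and from B cell development, had 6 of the 7 lists at its start. N-MYC was at 4.40-fold with the summit 6 bp from the start, H3K4me3 at 5.38, H3K27ac at 3.18, H3K27me3 at 10.5, EZH2 at 4.26 and SUZ12 at 3.81. Of the 613 bp of its H3K4me3 peak, 526 bp were shared with H3K27me3 and 372 bp with H3K27ac. Its nearest p300 peak lay 62.8 kb away. Peaks of H3K4me3 and H3K27me3 over the same bases were also seen at Wnt2b, Wnt5b and Fzd4. This makes 4 of 23 listed starts (17.4%) with both lists, against 6.94% of all genes. The 2 shares differ in how common H3K27me3 is, at 91.3% of the members and 23.7% of all genes. Among starts with H3K27me3, H3K4me3 was at 4 of the 21 members, against 1214 of 4140 genes, so it was not more common in the family. Such overlap in a population of cells can come from both marks on the same alleles or from different cells, and the 2 cannot be told apart here.

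**Figure D4:**
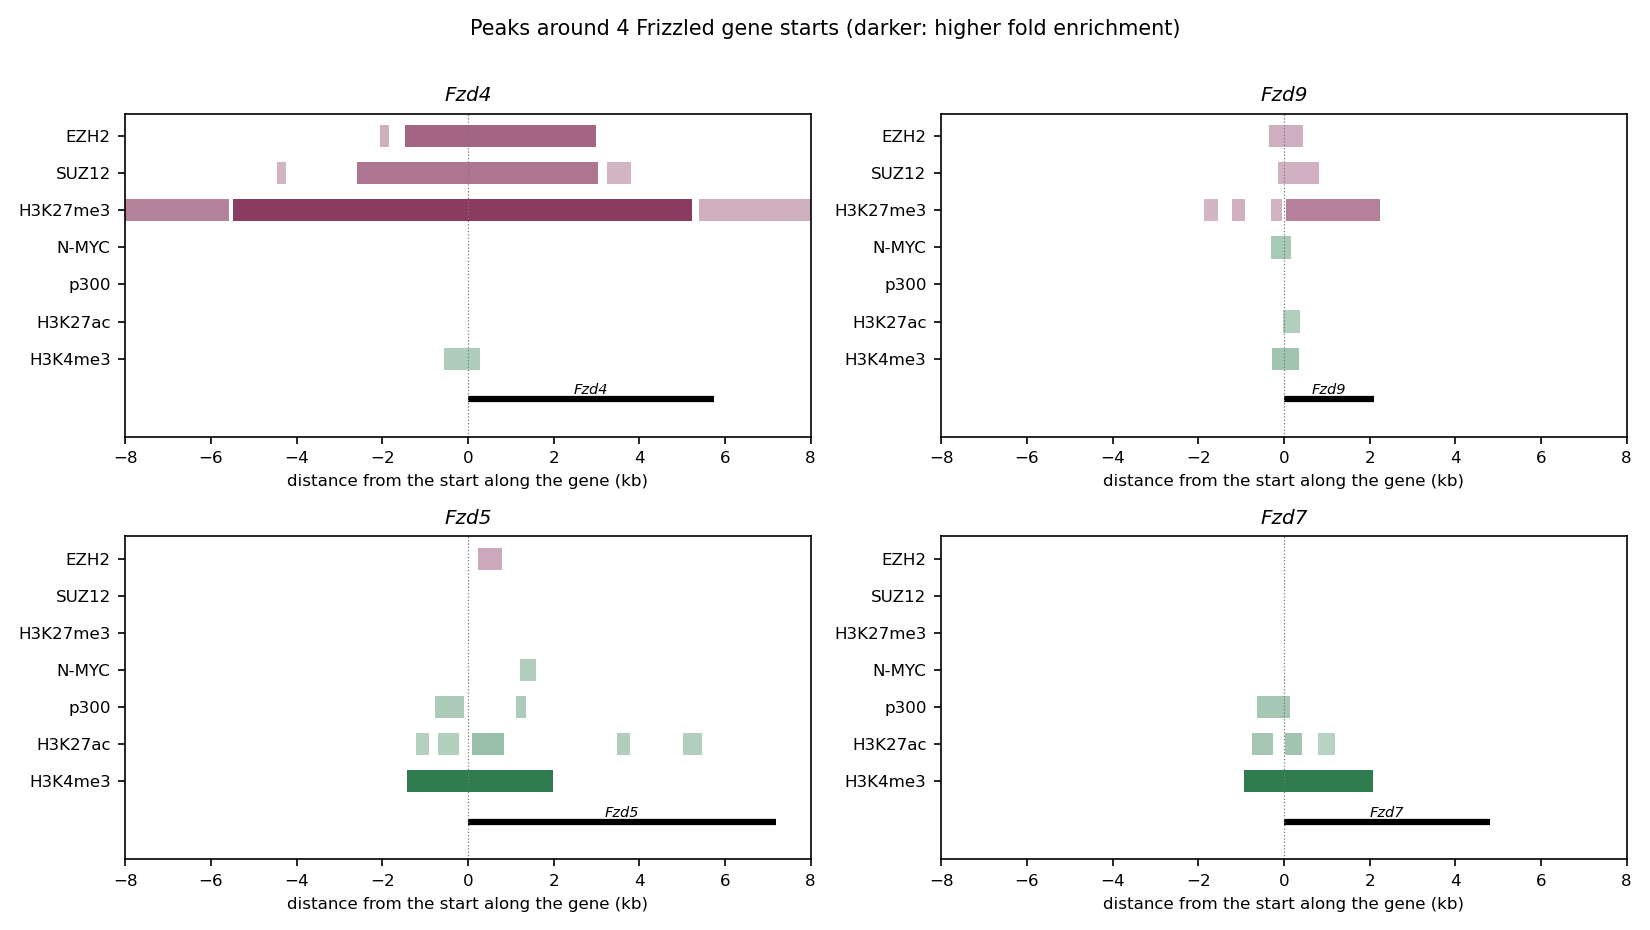
Peaks of the 7 lists (rows) around 4 Frizzled starts, drawn to scale with distance from the start along the gene in kb on the x axis, darker where the fold enrichment is higher, and genes as black bars at the bottom. Fzd4 lies under Polycomb peaks with a narrow H3K4me3 peak of 851 bp, Fzd9 has 6 lists, and Fzd5 and Fzd7 have H3K4me3 peaks of 3405 and 3005 bp without H3K27me3.

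Fzd10 had only H3K27me3, at 4.54-fold in a peak whose summit lay at -1809 bp relative to the start. Of the receptors read at both ends, Fzd3, a receptor of axon guidance, had EZH2 at 14.3, the highest EZH2 value of all 33 genes, with SUZ12 at 11.9 and H3K27me3 at 10.5. The same end of Fzd3 had N-MYC at 5.20, p300 at 3.86 and H3K4me3 at 7.72, all within the Polycomb peaks, and its H3K27me3 domain ran for 60.3 kb. Fzd2 had 10.7, 8.64 and 17.4 for EZH2, SUZ12 and H3K27me3, and Fzd6, a receptor of planar cell polarity, had 6.82, 7.80 and 18.2, with no active peak at an end in either gene. Fzd8 had 4.0, 3.65 and 13.0, with H3K4me3 up to 5.23 wholly under H3K27me3. Counting starts and ends together, 6 of 10 receptors and 2 of 19 ligands had H3K4me3, where 51.1% of all genes had it at the start and 50.0% at either end. The receptors' count was near those shares, and the difference between receptors and ligands was not tested.

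All 4 Sfrp inhibitors had H3K27me3, against 23.7% of all genes at the start and 27.6% at either end. Sfrp2 had EZH2 at 4.29, SUZ12 at 6.45 and H3K27me3 at 19.5, and Sfrp5 had 7.06, 4.60 and 18.3. Neither had an active peak at the start, where 54.8% of all genes had a peak of any active list. Sfrp4, which is known for its part in bone, had 5.72, 5.59 and 13.1 at its lower end and 2 small H3K4me3 peaks, of 416 and 505 bp, wholly inside peaks of these 3 lists, the higher at 5.39. Sfrp1, an inhibitor often silenced in tumours, had H3K27me3 at 13.7 and no peak of any other list at an end, with the nearest EZH2 and SUZ12 peaks 154 and 252 kb away.

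Sfrp1 was among a few members with H3K27me3 and neither EZH2 nor SUZ12 at the same place. At listed starts these were Wnt2 (8.91-fold), Wnt8b (6.99-fold) and Fzd10 (4.54-fold), 3 of 23 (13.0%), a count near the 9.94% of all genes. Wnt8a joined Sfrp1 among the genes read at both ends, 2 of 10, against 12.0% of all genes at either end. Wnt2, a ligand of lung and placenta development, had its nearest EZH2 and SUZ12 peaks 336 and 722 kb away, and Fzd10 had them 419 and 968 kb away. Wnt8b, a forebrain ligand, differed in that EZH2 and SUZ12 peaks lay inside the gene, the nearest of them 18.0 and 16.7 kb from the start and the highest at 4.54 and 5.59, with H3K27me3 at 11.9, H3K4me3 at 4.17 and H3K27ac at 3.95 in the same body.

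Where peaks were called, the members' medians of fold and width were above those of all genes in the Polycomb lists. In the H3K27ac and H3K4me3 lists, with few members, they were below. The median EZH2 value of the 19 members was 7.06 against 5.83 over all genes with an EZH2 peak at the start, with median widths of 2938 and 760 bp. Of those 7855 genes, 5592 had neither SUZ12 nor H3K27me3, as did 1 of the 19 members, so the sets differ in make-up. By EZH2 value, 13 of the 19 ranked above the middle of these genes, and Wnt5b was lowest, at the 4.47 percentile. For H3K27me3 the medians were 12.9 and 9.08, with widths of 8838 and 3960 bp, and for SUZ12 they were 7.96 and 5.71, with 3338 and 2192 bp. For H3K4me3 (6 members) they were 6.97 and 26.6, with 1230 and 2506 bp, and for H3K27ac (3 members) 5.20 and 12.4, with 397 and 2019 bp. The H3K4me3 peaks of Fzd5 and Fzd7, of 3405 and 3005 bp, were wider than the median over all genes. The ranks of EZH2 and SUZ12 followed each other over the 18 members with all 3 Polycomb lists (Spearman rho of 0.89, and 0.74 over the 1985 genes of that class). Those of EZH2 and H3K27me3 did so less closely, with rho of 0.18 and 0.33. These are correlations across genes, which share libraries and neighbouring domains and are not replicates.

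N-MYC lay far from most of the family. Its median distance to the nearest peak was 78.4 kb over the 23 listed starts, against 30.2 kb over all genes, and 21 of the 23 starts were more than 30 kb from one, against 50.1% of all genes. Outside the 1 kb window the distances ran from 1.21 kb at Fzd5 to 653 kb at Fzd1. For p300 the medians were 62.3 and 19.8 kb. The E-box CACGTG, the sequence to which MYC proteins bind with their partner Max, occurred in 2 of the 23 promoter windows (8.70%), which run from 250 bases before to 50 after the start, against 7.91% of all genes. It stands in capitals in these 30-base stretches of the strand of each gene, from position -228 relative to the start in Wnt9a and from -88 in Fzd9.
Wnt9a: ttcccaccgcgcCACGTGcccagccctccc
Fzd9: cgctccgggacaCACGTGggcggccgagag
Only Fzd9 of the 2 had an N-MYC peak. Over all genes the E-box was in 13.0% of the 5809 windows with N-MYC at the start and in 5.39% of the 11683 without. The Tcf and Lef motif CTTTGAT, searched on both strands, was in the window of Wnt11 alone (4.35%, against 3.28% of all genes).

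Promoters of the family were rich in CG. The median window held 31.0 CG dinucleotides in 300 bases, against 13.0 over all genes, and 20 of 23 windows (87.0%) had an observed over expected CG ratio of at least 0.6, against 48.4%. The exceptions were Wnt8b with 6 CG (ratio 0.35), Wnt16 with 10 (0.40) and Wnt10b with 18 (0.56). Wnt9a held the most, 58, followed by Fzd9 with 53. Against the 8466 genes with a ratio of at least 0.6, EZH2 at 17 of the 20 CG-rich members was near the share in that class, 77.0%. SUZ12 at 16 of the 20 stood against 17.6%, H3K27me3 at 18 against 25.0%, and the 3 together at 16 against 16.7%. The active lists differed from that class the other way, with H3K4me3 at 6 of the 20 against 83.7%, H3K27ac at 3 against 78.9%, p300 at 2 against 69.4% and N-MYC at 1 against 59.9%. EZH2 alone of the 7 lists thus had a share close to that of CG-rich genes at large. This comparison was added after the first counts had been seen.

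**Figure D5:**
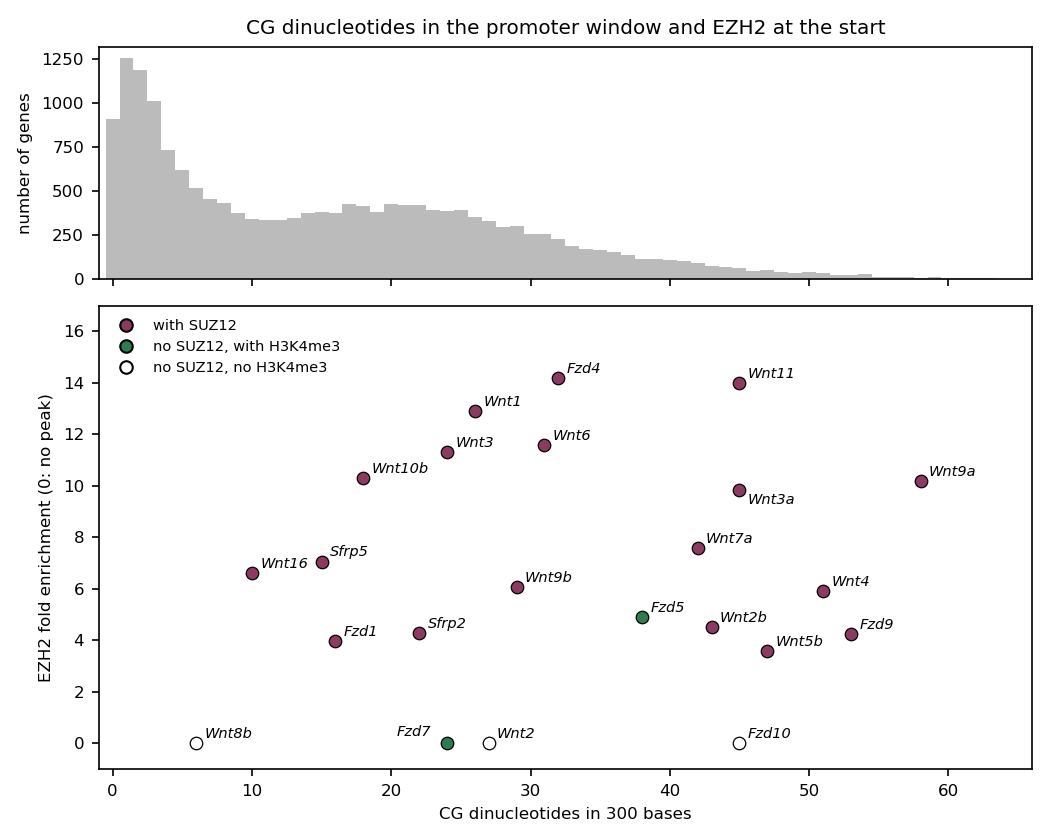
The upper panel counts all genes by the number of CG dinucleotides in their 300-base promoter window, and the lower panel places the 23 members by the same number (x axis) and the EZH2 fold enrichment at the start (y axis, 0 for no peak), coloured by SUZ12 and H3K4me3. Wnt1 with 26 CG and Fzd4 with 32 have high EZH2 values, whereas Fzd10 with 45 and Wnt2 with 27 have none.

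A list of 49 other genes of the pathway was read at the start or, for 15 of them, at both ends. Of all genes, 11.3% had EZH2, SUZ12 and H3K27me3 together at the start and 12.7% at either end. EZH2 with neither SUZ12 nor H3K27me3 lay at 32.0% and 29.6%, and H3K4me3 at 51.1% and 50.0%. Of 18 secreted or membrane modulators, 12 had EZH2, SUZ12 and H3K27me3 together, among them the antagonist Dkk1 (H3K27me3 17.1) and the R-spondin receptor Lgr4 (18.6). Kremen1 and Znrf3 were the 2 modulators with EZH2 and neither SUZ12 nor H3K27me3. Both genes of Wnt secretion, Porcn and Wls, had all 3 Polycomb lists, Porcn with H3K4me3 at 25.3 as well. Of 6 co-receptors, Ror1, Ror2 and Ptk7 had them, while Lrp5, Lrp6 and Ryk had EZH2 with H3K4me3 and no SUZ12 or H3K27me3.

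Of 12 cytoplasmic genes, 1 (Nkd2) had the 3 Polycomb lists, against 11.3% of all genes at the start. EZH2 alone of the 3 lay at 9, against 32.0%. Ctnnb1, which encodes beta-catenin, had EZH2 at 5.37, N-MYC at 11.3, p300 at 5.27, H3K27ac at 18.4 and H3K4me3 at 44.7. Of 11 nuclear genes, 5 had the 3 Polycomb lists, against 11.3%, and 10 had H3K4me3, against 51.1%. Tcf7, the Tcf factor of T cells, had EZH2 at 7.89, N-MYC at 7.16, p300 at 5.95, H3K27ac at 30.2 and H3K4me3 at 30.4, without SUZ12 or H3K27me3, and it is also 1 of the T lymphocyte markers above. Lef1 had peaks of all 7 lists, from 4.12 for N-MYC to 39.4 for H3K4me3. Tcf7l2, by contrast, had EZH2 at 8.20, SUZ12 at 11.2 and H3K27me3 at 10.4 and no active list. Of the 49 genes, 19 had EZH2 without SUZ12 and H3K27me3, as the receptor Fzd5 had, a state found at 32.0% of all genes at the start. All of these but Pygo2, which lacked p300, also had p300, H3K27ac and H3K4me3, as Fzd5 had. At the start, 39.8% of all genes had p300, 51.1% had H3K27ac and 51.1% had H3K4me3. How often all genes in the same EZH2 state have these lists was not computed, so the likeness to Fzd5 may not be particular to the pathway. Of the 19, Dvl2, Dvl3 and Bcl9l alone were without N-MYC in the window, as was Fzd5. The others, Lrp5, Lrp6 and Ctnnb1 among them, had it, against 33.2% of all genes at the start and 32.0% at either end.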

How the data were processed

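The 7 ChIPmentation libraries of MYCN-driven lymphoma cells, 1 per antibody, were analysed as peak lists in narrowPeak format. The submitters' processing notes name FastQC, Bowtie2, SAMtools, MACS2 and deepTools and the builds mm10 and GRCm38, without versions or roles. Which input or animals stood behind each list is not given in the sources used here. The deposited fold enrichment is a ratio over background at the summit, and the deposited p-values and q-values are on a −log10 scale, with a smallest −log10 q of 2.00 to 2.08 per list. Read depth is unknown, so no interval was computed. A fold was used only within its own list.

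Starts and strands came from RefSeq's GRCm38.p6 promoter table, taking the most upstream listed start. It lists a start for 23 of the 33 members, whereas the design assumed all 33, so the other 10 were read within 1 kb of both gene ends. Windows of 1 kb and gene bodies were called on an overlap of at least 1 bp. The background was every protein-coding gene with a listed start (17492) or, for bodies and ends, every protein-coding gene (21887). As a check of the build, H3K4me3 lay at 51.1% of starts and at 5.50% of starts shifted by 20 kb. Domains joined H3K27me3 peaks over gaps of at most 1 kb.

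Genes named with full values were those with EZH2 without SUZ12 and H3K27me3, those with N-MYC or p300 at the start, the 5 highest in EZH2 and in H3K27me3, and any without a peak. The other members are given by role. Members and lists were chosen with earlier results of these data known. The CG-rich class was chosen after seeing the counts. Python 3.11.15, numpy 2.4.6, pandas 2.3.3, scipy 1.17.1 and matplotlib 3.10.9 were used. The overlap code was tested on simulated data.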

Additional observations from a re-analysis of the deposited data

How the results depend on the processing

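The main counts were recomputed, with all settings planned. Starts were reread with other windows, thresholds and listed starts, with summits in place of overlaps, and with lists cut to equal length. Gene bodies were reread with other thresholds, summits and equal lengths, and without the 1 kb after the start. Other counts, such as those of Polycomb peaks without an active list and those in the CG-rich class, were not recomputed. Of 134 alternative values for 18 counts, 113 stayed within 1.5 times the reported count, among them every value for EZH2, SUZ12, H3K27me3 and their combination. The 21 that moved concern counts of active peaks and of starts with no peak. Those at either end also cover 33 genes where the starts cover 23, and other causes were not tested. As shares, p300 went from 8.70% to 12.1%, H3K27ac from 13.0% to 18.2% and H3K4me3 with H3K27me3 from 17.4% to 21.2%. Those shares stayed within 1.5 times, whereas that of N-MYC went from 4.35% to 9.09%. N-MYC at the start (1 gene) became 2 within 2 kb, 2 within 5 kb, 2 with any listed start and 3 at either end of all 33 genes. p300 at the start (2) became 4 at either end and 1 with lists of equal length (the 9798 highest peaks of each). H3K27ac at the start (3) became 5 within 5 kb, 6 at either end and 0 at equal length. H3K4me3 at the start (6) became 2 at equal length, and H3K4me3 with H3K27me3 (4) became 7 at either end and 0 at equal length. Starts with no peak (0) became 2 when the summit had to lie in the window and 1 at equal length. In gene bodies, N-MYC (5) became 3 with a fold of at least 4 and 3 without the 1 kb after the start, p300 (6) became 2 with that fold and 3 at equal length, H3K27ac (12) became 7 and 2, and H3K4me3 (11) became 3 at equal length. With a fold of at least 4, EZH2, SUZ12 and H3K27me3 met at 15 starts, 65.2% against 9.18% of all genes, and at equal length at 17, 73.9% against 9.04%. No paired analysis was possible because each antibody had 1 library. Lists differ in length from 9798 to 123056 peaks, so shares of different lists cannot be ranked against each other, and an unlisted weak site cannot be told apart from an empty one.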
